A study of Populus trichocarpa with 12 samples.

Results

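Severe drought, 7 days without water, was set directly against mild drought, 5 days without water, in genomic regions of Populus trichocarpa where acetylation of lysine 9 on histone H3 (H3K9ac) had been listed as changed on both days. A region of the day 7 table and a region of the day 5 table formed a pair when they lay on the same chromosome and shared at least 80% of the length of each. This gave 3076 pairs among 22706 listed regions, from 3071 of 12101 day 7 regions (25.4%) and 3071 of 10605 day 5 regions (29.0%). A second pair was formed by 5 regions of each table. Of the pairs, 3067 lay on the 19 chromosomes and 9 on scaffolds.

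H3K9ac was measured by chromatin immunoprecipitation and sequencing in differentiating stem xylem, the young wood next to the cambium, of greenhouse plants aged 3 months. Plants were fully watered (day 0), at a soil water content of 74% and a xylem water content of 80.6%, or went without water for 5 days (33% and 75.3%) or 7 days (29% and 74.3%). The 12 samples were 2 immunoprecipitates and 2 inputs per day. The labels name no transgene, mutation or agent for any group. Whether replicates were taken from different plants is not stated, and the p-values cover the spread between these libraries alone, which may be technical. Time without water and severity of drought cannot be told apart here, and neither can the day of harvest, since no watered plants were sampled alongside day 5 or day 7.

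Histone acetyltransferases place acetyl groups on lysine 9 of histone H3 and histone deacetylases remove them. The mark loosens the contact between histone and DNA, and in plants it is found mainly at the start of genes that are being transcribed. In drought, plants accumulate abscisic acid, the hormone that closes stomata and switches on stress genes, and in Arabidopsis several of those genes gain H3K9ac. Because it can be placed and removed within hours, the mark can differ between early and late stages of one stress. No gene was assigned to the regions, because no annotation of the build of the files was used here, so regions are given by their 1-based coordinates in that build and no sequence is shown.

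For each pair, the normalised reads per kb of each drought library were divided by the mean of the 2 day 0 libraries in the same table. The shared day 0 libraries thus put both days on a single scale, called the fold of day 0 below. Reads behind these values, recovered from the normalised values, numbered 1185003 and 1491783 over all pairs in the day 7 libraries, and 1920879 and 1326060 in the day 5 libraries. The median region held 314 and 393 reads at day 7, against 509 and 347 at day 5. Replicate libraries disagreed beyond sampling error. Their chi-square divided by its degrees of freedom was 2.87 at day 7 and 3.97 at day 5. The regions of a pair ranged from 1000 to 7000 bp at day 7 and from 1000 to 7700 bp at day 5, with a median of 1700 bp on both days. Regions outside the pairs were shorter, with a median of 1100 bp at day 7 and 1200 bp at day 5.

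The first question was whether H3K9ac over the pairs as a set lay higher or lower in severe than in mild drought. The pairs were listed as changed at the same place on both days, so they do not stand for H3K9ac as a whole. The medians of the days were close. The median fold of day 0 over the pairs, on the log2 scale, was -0.26 and -0.28 in the day 7 libraries, against -0.26 and -0.27 in the day 5 libraries. The values of the days overlap, and the difference of -0.0043 has an exact two-sided permutation p of 0.667. The smallest p that 4 libraries allow is 0.333, so this test could not have shown a difference. The median also pools 1123 pairs gained and 1831 lost on both days, in which opposite shifts could cancel. These classes are given apart below. This level rests on the authors' scaling. With the right-trimmed mean read counts of the file headers as scale, the same difference was -0.078, and with unscaled reads it was -0.25.

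Differences of single regions were mostly small, but over all pairs wider than those between replicates. The log2 difference, day 7 minus day 5, had an SD of 0.17 over the pairs and an interquartile range from -0.10 to 0.10. Replicates of a single day, put on the same footing by dividing their difference by the square root of 2, had an SD of 0.13 at day 7 and 0.14 at day 5. Over all pairs, the spread between days was thus wider than the spread between replicates, more so among the larger differences. Replicates of a day share coordinates, while the 2 regions of a pair may differ. In the 593 pairs of identical coordinates the SD between days was 0.14, close to the replicate SDs of all pairs. The pairs also include 122 listed in opposite directions, with median log2 differences of 0.31 and -0.30. The part of either in the wider spread was not tested. Differences past 0.3 in either direction were found in 228 pairs between the days, against 114 pairs between the day 7 replicates and 135 between the day 5 replicates. Past 0.5 there were 28 pairs between the days, against 6 and 10 between replicates. The extremes of the difference were -0.84 and 0.71.

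**Figure D1:**
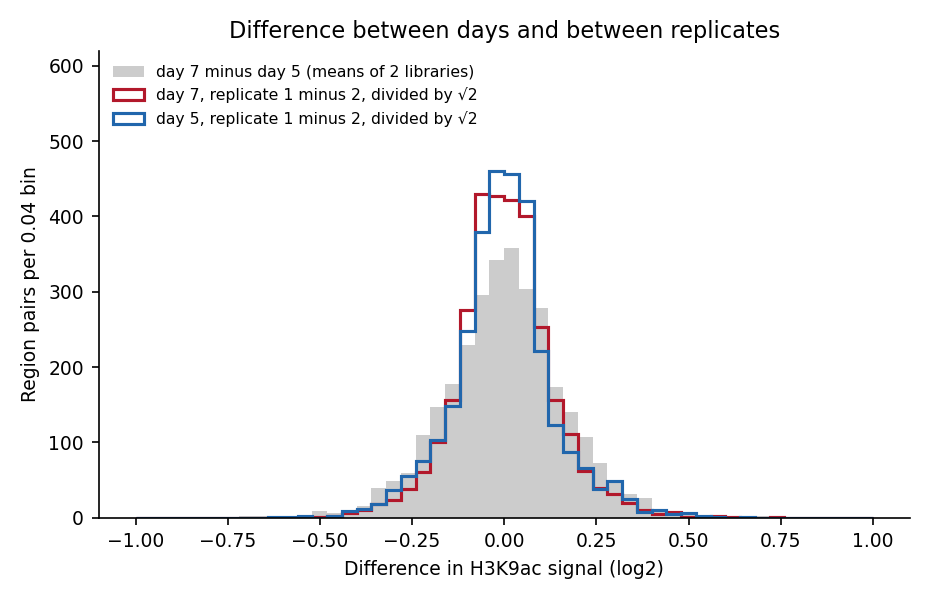
Histogram of the log2 difference in H3K9ac between days (grey, day 7 minus day 5, means of 2 libraries) and between replicates within day 7 (red) and within day 5 (blue), each replicate difference divided by the square root of 2, over 3076 region pairs in bins of 0.04. The grey distribution has an SD of 0.17, against 0.13 and 0.14 for the replicates, and each of them centres near 0.

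Both day 7 libraries lay beyond both day 5 libraries in 1308 pairs (42.5%). In 660 of them (21.5%) day 7 was higher and in 648 (21.1%) it was lower. With 2 libraries a day, such separation is a weak criterion and was not tested. Its even split rests on the authors' scaling, since 316 pairs were higher and 1085 lower on the right-trimmed means, and 1 was higher and 487 lower with unscaled reads. A limma fit over all pairs, with Benjamini-Hochberg adjustment over the 3076, called 15 pairs (0.488%) at an adjusted p of 0.05, of which 8 (0.26%) were higher at day 7 and 7 (0.228%) were lower. At an unadjusted p of 0.05 it called 401 (13%). The median SE of the difference was 0.10. With the 4 drought libraries, the 15 calls rest on a setting of the fit, the trend that ties the expected spread to the mean fold of day 0. Without a trend, with the trend over reads, or with weights from the reads themselves (voom), limma called 0 pairs, with smallest adjusted p-values of 0.123, 0.143 and 0.140, while 388, 393 and 395 passed an unadjusted p of 0.05. Without either of the day 7 libraries 0 pairs were called, without day 5 replicate 1 there were 150 and without day 5 replicate 2 there were 37.

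The called pairs were short regions in which the mark stood on opposite sides of day 0 on the 2 days. In 14 of the 15 the deposited tables list the region in opposite directions. Such a listing already sets which day is higher. It rests on the same drought libraries as the limma fit, so the adjusted p-values of these 14 are not independent support for their direction. Their lengths ran from 1000 to 1500 bp, and the 2 regions of a pair shared between 80% and 93.3% of their length, so the days were not measured on exactly the same bases. The number of reads per library was between 130 and 630. Their differences were between 0.45 and 0.71 on the log2 scale without sign, a ratio of day 7 to day 5 between 1.37 and 1.64 where day 7 was higher and between 0.612 and 0.727 where it was lower. The day 0 libraries themselves lay between 0.949 and 1.05 of their mean in these regions.

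Among the pairs that rose at day 7, the one on chromosome 19 from 14501401 to 14502500 (day 5: 14501301 to 14502300) held 1.35 and 1.28 times the day 0 signal in the day 7 libraries, against 0.797 and 0.810 in the day 5 libraries. The log2 difference was 0.71 (SE 0.07, limma adjusted p = 0.013). The 4 libraries split cleanly by day around day 0. A region on chromosome 6 from 21673001 to 21674000 (day 5: 21673101 to 21674200) held 1.15 and 1.23 times day 0 at day 7, against 0.716 and 0.736 at day 5, a log2 difference of 0.71 (limma adjusted p = 0.013, SE 0.08). A chromosome 2 region from 469201 to 470200 (day 5: 469401 to 470400) held 1.12 and 1.18 times day 0 at day 7, against 0.753 and 0.664 at day 5 (log2 0.70, limma adjusted p = 0.0186, SE 0.09). These 3 had the largest differences in which day 7 was higher, and in each of them both day 5 libraries were below day 0 and both day 7 libraries above it.

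The second chromosome 6 region, from 26754601 to 26755700, held 1.17 and 1.30 times day 0 at day 7, against 0.841 and 0.791 at day 5 (log2 0.60, limma adjusted p = 0.0293). Scaffold 21 from 430301 to 431300 held 1.31 and 1.37 times day 0 at day 7, against 0.884 and 0.836 at day 5 (log2 0.64, limma adjusted p = 0.013). Regions on chromosome 11 from 16694801 and on chromosome 8 from 12470301, each 1000 bp long, passed more narrowly, with log2 differences of 0.50 and 0.45 and a limma adjusted p of 0.0484 each. The remaining call in this direction was the one pair listed as lost on both days, on chromosome 16 from 10038101 to 10039100. It held 0.901 and 0.914 times day 0 at day 7, against 0.623 and 0.628 at day 5 (log2 0.54 with an SE of 0.09, limma adjusted p = 0.0484). There the signal of severe drought was nearer to day 0 than that of mild drought, and the libraries of the days did not overlap.

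Among the pairs that fell at day 7, the region on chromosome 1 from 6327401 to 6328900 (day 5: 6327501 to 6328900) held 0.712 and 0.789 times day 0 at day 7, against 1.21 and 1.23 at day 5. The log2 difference was -0.70 (SE 0.08, limma adjusted p = 0.013). It is the longest of the called pairs and that with the closest coordinates, at a shared length of 93.3%. Chromosome 9 from 9582701 to 9583800 held 0.786 and 0.614 times day 0 at day 7, against 1.16 and 1.11 at day 5 (log2 -0.71 with an SE of 0.11, limma adjusted p = 0.0484). Here the day 7 replicates differed more from each other than in the other called pairs.

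Chromosome 2 held 3 of the 7 pairs that fell, and 4 of the 15 called in all. Its region from 2270401 to 2271500 held 0.786 and 0.770 times day 0 at day 7, against 1.08 and 1.12 at day 5 (log2 -0.50, limma adjusted p = 0.0421). Its region from 5468201 to 5469200 held 0.943 and 0.841 at day 7, against 1.26 and 1.30 at day 5, and that from 7857101 to 7858200 held 0.829 and 0.787, against 1.10 and 1.12. Chromosome 2 also held 280 of the pairs tested, more than any chromosome but chromosome 1 with 337 pairs and 1 call. The other pairs that fell lay on chromosome 11 from 16566301 to 16567300 (log2 -0.51) and on chromosome 12 from 3074801 to 3075800 (log2 -0.50), each with a limma adjusted p of 0.0484.

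**Figure D2:**
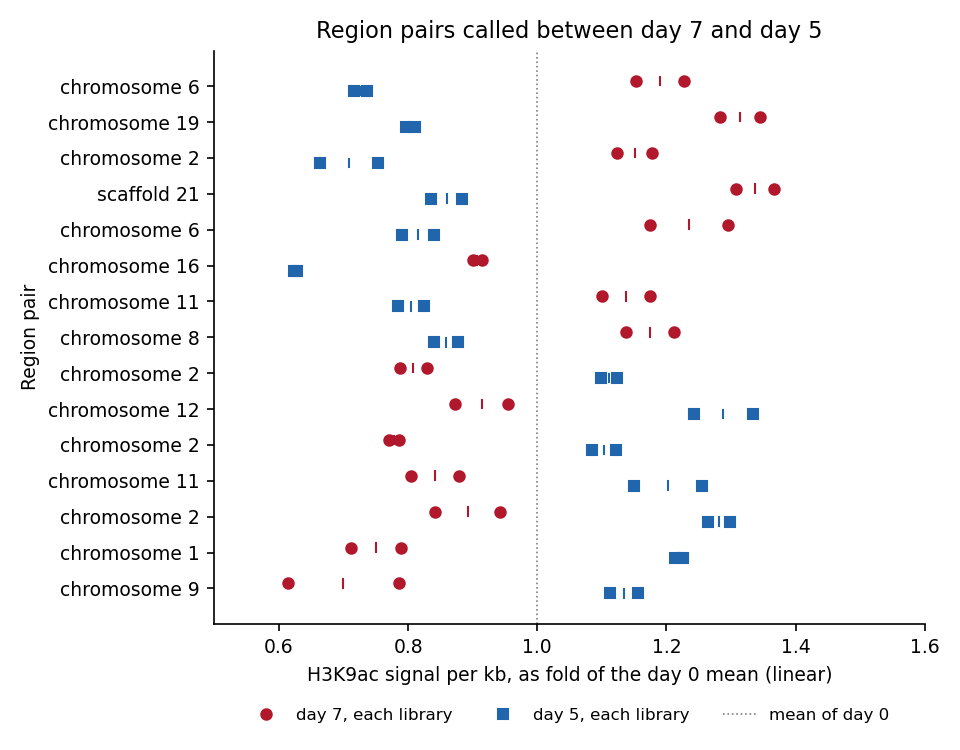
H3K9ac signal per kb as fold of the day 0 mean (linear axis) in each library of day 7 (red circles) and day 5 (blue squares) for the 15 called region pairs, ordered by their log2 difference from 0.71 at the top to -0.71 at the bottom, with short bars at the means of 2 libraries and a dotted line at day 0. In all 15 the libraries of the days do not overlap, and in 14 they stand on opposite sides of day 0.

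The largest single difference did not pass the test over the 4 drought libraries. On chromosome 6 from 4067401 to 4068400, the signal was 0.789 and 0.684 times day 0 at day 7, against 1.56 and 1.10 at day 5, a log2 difference of -0.84 with an SE of 0.15 (limma adjusted p = 0.0684). The 2 day 5 libraries were far apart from each other. Both still lay above both day 7 libraries, which was a condition for naming a pair. With all 6 libraries in the limma fit the same pair was called, at an adjusted p of 0.0181, and with unscaled reads its limma adjusted p was 0.945. The log2 difference was -1.09 without day 5 replicate 2 and -0.58 without day 5 replicate 1.

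The calls lay mostly where replicates were closest. Replicate libraries agreed best in the 371 pairs whose mean over both days was within 0.2 of day 0 on the log2 scale, with a root mean square SD of 0.061. It was 0.16 in the 963 pairs more than 0.5 below day 0 and 0.15 in the 607 pairs more than 0.5 above it. Of the 15 calls, 14 stood in the band around day 0, which also held 120 of the 122 pairs listed in opposite directions. Fits of the 4 drought libraries without the trend over the mean fold of day 0 do not use the low spread of the band, and called none. With all 6 libraries and the trend over reads, limma called 18 pairs, 9 of them among the 15. Whether the listing bears on the low spread of the band was not tested.

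In all, 47 pairs were listed as lost at day 5 and gained at day 7, and 75 as gained at day 5 and lost at day 7. Both tables use the same day 0 libraries, so the sizes of these classes are a description. Of the 122, 82 have an adjusted p below 0.05 on both days in the authors' deposited tables. The 47 had a median fold of day 0 of 1.08 at day 7, against 0.868 at day 5, and the 75 had 0.916 at day 7, against 1.10 at day 5. These shifts were small, with median log2 differences of 0.31 and -0.30. All 4 drought libraries lay beyond both day 0 libraries of their table, on opposite sides on the 2 days, in 29 of the 47 and in 58 of the 75. The median length was 1000 bp in both classes on both days, the shortest a listed region can have. Coordinates were identical in 5 of the 47 and 5 of the 75, against 593 (19.3%) of all pairs. Opposite listing was found in 3.97% of the pairs sharing at least 80%, against 11.3% of those sharing 50% to under 80%. It was thus more frequent where the coordinates of the days differed more. The libraries of the days did not overlap in 120 of the 122, against 42.5% of all pairs, and the opposite listing already sets which day is higher.

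Most pairs, 1123 gained and 1831 lost on both days, had about the same distance from day 0 on both days with the authors' scaling. The direction was taken from the same libraries, so similar distances may partly follow from the choice of pairs. On right-trimmed means the median difference in distance was -0.074 for gained and 0.067 for lost pairs. With unscaled reads it was -0.25 and 0.24. Gained pairs had a median fold of day 0 of 1.40 and 1.46 in the day 7 libraries, against 1.39 and 1.47 in the day 5 libraries. Lost pairs had 0.720 and 0.700 at day 7, against 0.717 and 0.695 at day 5. In both classes the replicates of a day lay farther apart than the days, and the second replicate was farther from day 0 on both days. Gained pairs stood farther from day 0 at day 7 than at day 5 in 602 of 1123 pairs (53.6%), and lost pairs in 903 of 1831 (49.3%). With libraries of the days not overlapping, 245 gained pairs (21.8%) were farther from day 0 at day 7 and 197 (17.5%) nearer. Among lost pairs, 376 (20.5%) were farther and 370 (20.2%) nearer. Over all pairs, day 7 was higher in 21.5% and lower in 21.1% without overlap. Only 1 of these 2954 pairs was called, the chromosome 16 region above.

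**Figure D3:**
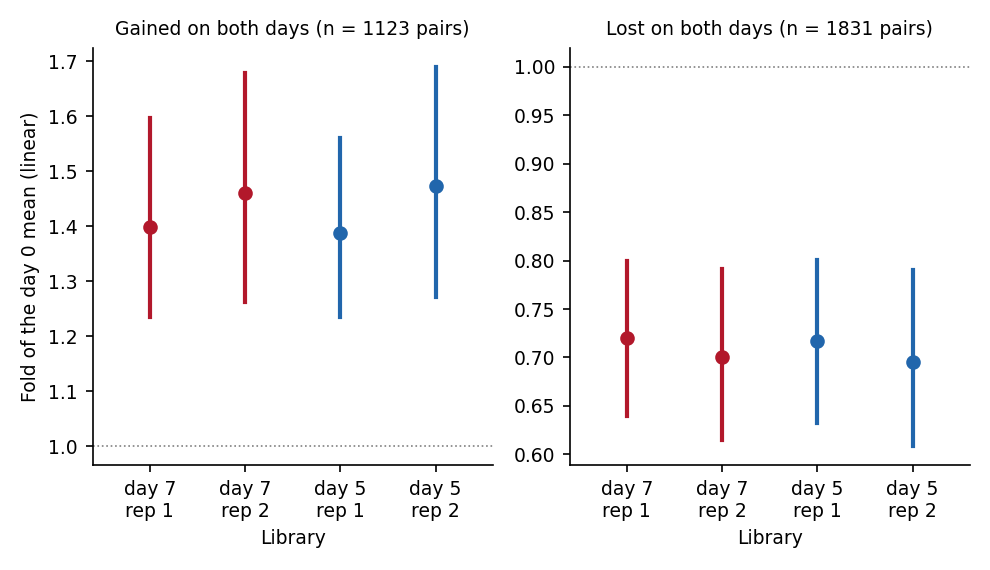
Median (point) and quartiles (line) of H3K9ac as fold of the day 0 mean, on linear axes that do not start at 0, in each library of day 7 (red) and day 5 (blue), for 1123 pairs gained (left) and 1831 pairs lost (right) on both days. Medians run from 1.39 to 1.47 and from 0.695 to 0.720, and replicates of a day differ more than the days do.

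Within these classes, the 3 largest differences in each direction were picked after their values had been seen. None of the 12 passed the test, with limma adjusted p-values from 0.0684 to 0.335. Some gained regions had lower values in severe drought. On chromosome 5 from 21194701 to 21197900, the signal was 1.90 and 1.94 times day 0 at day 7, against 2.92 and 3.17 at day 5, a log2 difference of -0.66 (SE 0.22, limma adjusted p = 0.243). A second such gain on chromosome 6 from 3841101 to 3844000 was 1.45 and 1.49 times day 0 at day 7, against 2.08 and 2.03 at day 5 (log2 -0.49 with an SE of 0.11, limma adjusted p = 0.108). In both the libraries of a day lay close together and the days were apart. The third, on chromosome 14 from 16978101 to 16980800, was less clear, at 1.65 and 1.40 at day 7, against 1.72 and 2.65 at day 5 (log2 -0.49 with an SE of 0.20, limma adjusted p = 0.335). Its day 5 libraries lay far apart and the lower of them was close to the higher day 7 library.

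Other gained regions had higher values in severe drought. Chromosome 6 from 11053801 to 11056500 held 2.18 and 2.30 times day 0 at day 7, against 1.47 and 1.64 at day 5 (log2 0.53 with an SE of 0.13, limma adjusted p = 0.131). Chromosome 4 from 5662701 to 5664500 held 1.83 and 1.91 at day 7, against 1.32 and 1.31 at day 5 (log2 0.51 with an SE of 0.09, limma adjusted p = 0.0684). Chromosome 12 from 12531101 to 12533000 held 2.18 and 2.55 at day 7, against 1.62 and 1.67 at day 5. None of these 3 sets of libraries overlapped between the days, but this was a condition for naming a pair and adds no support.

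Among losses, chromosome 13 from 2893101 to 2895900 had lower values in severe drought, at 0.397 and 0.392 times day 0 at day 7, against 0.621 and 0.643 at day 5 (log2 -0.68 with an SE of 0.16, limma adjusted p = 0.108). The 4500 bp region on chromosome 12 from 4361401 to 4365900 was at 0.410 and 0.378 at day 7, against 0.613 and 0.530 at day 5 (log2 -0.53 with an SE of 0.18, limma adjusted p = 0.243). Another lower loss, on chromosome 6 from 22979801 to 22981800, was at 0.663 and 0.540 at day 7, against 0.863 and 0.893 at day 5 (log2 -0.55 with an SE of 0.12, limma adjusted p = 0.0805). The reverse was seen on chromosome 15 from 2231101 to 2232900, at 0.712 and 0.766 at day 7, against 0.483 and 0.470 at day 5 (log2 0.63 with an SE of 0.12, limma adjusted p = 0.0697). Chromosome 3 from 14837001 to 14839200 behaved likewise in these libraries, at 0.673 and 0.666 at day 7, against 0.461 and 0.457 at day 5 (log2 0.54 with an SE of 0.13, limma adjusted p = 0.115). On chromosome 1 from 26670701 to 26672200, a log2 difference of 0.56 went with day 7 libraries at 0.625 and 0.812 and day 5 libraries at 0.590 and 0.396. The libraries of each day lay far apart, and the lower day 7 library was close to the higher day 5 library.

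The difference was also set against the enrichment of H3K9ac over input at day 0, a measure that uses neither drought day. Over all pairs, the libraries of day 7 lay wholly above those of day 5 in 21.5% and wholly below in 21.1%. In the 87 pairs with an enrichment of 0.5 to 1 the median log2 difference was -0.02. There, 18 pairs (20.7%) were wholly higher at day 7 and 19 (21.8%) wholly lower. In the 763 pairs at 1 to 1.5 the median was 0.04, with 194 (25.4% of the 763) wholly higher and 99 (13.0%) wholly lower. At 1.5 to 2 it was 0.01, with 237 of 1072 pairs higher and 207 lower in this sense. At 2 to 3 it was -0.01, with 177 of 932 higher and 243 (26.1%) lower. At 3 or more it was -0.04, with 31 of 178 (17.4%) higher and 60 (33.7%) lower. The median thus fell from class to class above an enrichment of 1, and the class of 0.5 to 1 did not follow that order. Over all 3076 pairs, which share their libraries, Spearman's rho was -0.11 and Pearson's r was 0.03, so the relation is weak and not linear.

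A small set of 44 pairs with less than 0.5 times as many immunoprecipitated as input reads at day 0 stood apart. Their median log2 difference was -0.26, and none was called. Without overlap, day 7 was lower in 20 pairs (45.5%) and higher in 3 (6.82%), against 21.1% and 21.5% of all pairs. The day 5 replicates also differed most here, the median log2 difference of replicate 1 from replicate 2 being -0.39, and the implied input at day 7 was lower by 0.66 than at day 5, relative to the median pair. The part of either in the difference was not tested. The set holds the longest pairs and those with the most reads. The longest, on chromosome 13 from 14751401 to 14758400, drew 12106 and 14310 reads at day 7, against 22491 and 17527 at day 5. Its signal was 1.28 and 1.21 times day 0 at day 7, against 1.47 and 1.69 at day 5 (log2 -0.34 with an SE of 0.10, limma adjusted p = 0.163), at an enrichment of 0.10 over input. Chromosome 16 from 8214601, chromosome 14 from 16981701 and chromosome 3 from 9386101 were alike, with log2 differences of -0.31, -0.35 and -0.33 and enrichments of 0.11, 0.12 and 0.11. Regions of this kind hold many input reads relative to immunoprecipitated reads. How much of the mark they hold was not measured apart from this ratio.

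**Figure D4:**
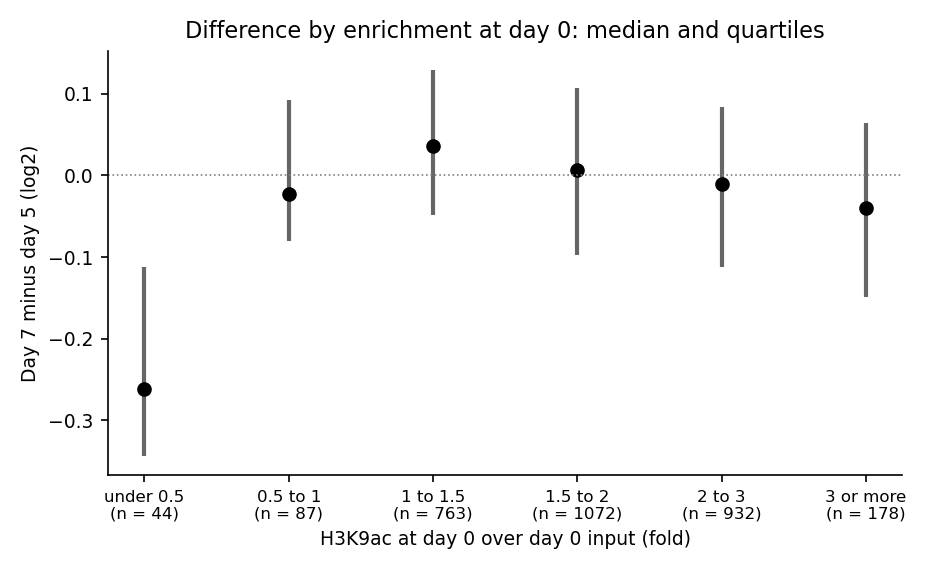
Median (point) and quartiles (line) of the log2 difference in H3K9ac, day 7 minus day 5, by the fold of H3K9ac over input at day 0, with the number of pairs in each class. Medians lie between -0.04 and 0.04 in the 5 classes at or above 0.5, and at -0.26 in the 44 pairs under 0.5.

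The drought inputs could be compared through the deposited enrichment of day 0, which the authors computed over the inputs of the drought day. This gives a single value per day, without replicates and at an unknown depth, relative here to the median pair. The implied input varied much more between the days than H3K9ac did, with an SD of 0.47 against 0.17 on the log2 scale, and by more than 0.5 in 909 pairs. Across pairs it hardly moved with the H3K9ac difference between days, with a Pearson's r of 0.07 and a Spearman's rho of 0.06. It moved more with differences between replicates, at a Spearman's rho of -0.21 for day 7 and -0.18 for day 5. Of the 15 called pairs, 5 had an input difference under 0.25. The input difference had the sign of the H3K9ac difference in 8 of the 15. The others included the chromosome 6 region from 21673001, where H3K9ac was higher and the input lower by 0.49 at day 7. When only the 1236 pairs with an input difference under 0.25 were fitted, limma called 1, the chromosome 1 region from 6327401.

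**Figure D5:**
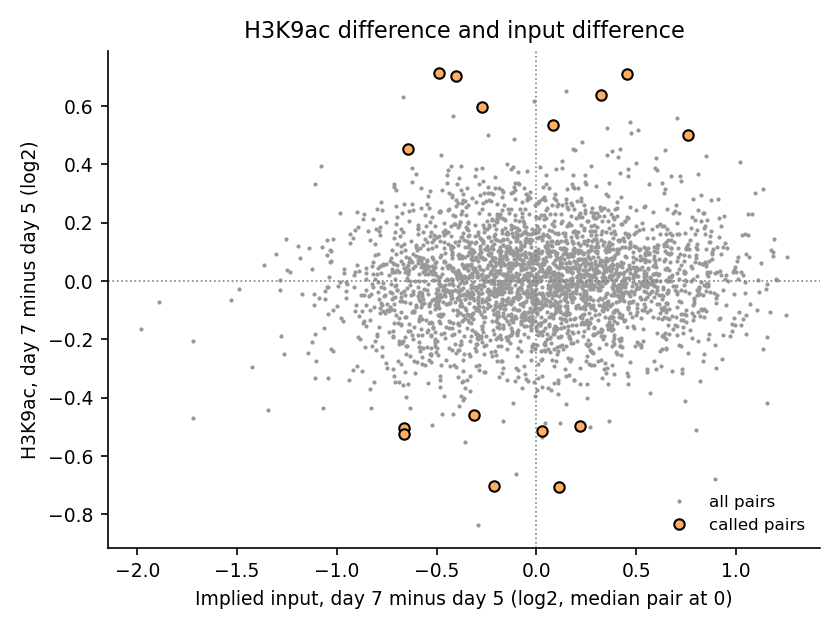
Log2 difference in H3K9ac, day 7 minus day 5, against the log2 difference of the implied input with the median pair at 0, for 3076 region pairs (grey) and the 15 called pairs (orange). The called pairs spread over input differences from -0.67 to 0.76, and across all pairs Pearson's r is 0.07.

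By length, the median difference without sign was 0.09 in the 504 pairs whose day 7 region had 1000 bp and 0.11 in the 236 pairs over 3000 bp. All 15 calls were in day 7 regions of up to 1500 bp. Of these, 9 were at 1000 bp, a class with 16.4% of all pairs. The other 6 were among the 780 pairs of 1100 to 1500 bp, 25.4% of all pairs. Since 14 of the 15 were listed in opposite directions, a class with a median length of 1000 bp, length and listing go together here. Length apart from the listing was not tested. Closeness of the coordinates went with smaller differences, with an SD of 0.18 in the 1269 pairs sharing 80% to 90% of the longer region and 0.14 in the 593 pairs of identical coordinates. In the identical pairs 85 (14.3%) were higher and 113 (19.1%) lower at day 7 without overlap, against 21.5% and 21.1% of all pairs. A fit of the identical pairs alone called 0, with 38 at an unadjusted p of 0.05. The 2795 pairs that shared 50% to under 80% had a wider SD of 0.22. Their libraries did not overlap between the days in 57.6%, against 42.5% of the pairs sharing at least 80%.

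The borders of the regions of a pair were close, as the choice of pairs requires. The start was at the same base in 1296 pairs (42.1%) and the end in 1274 (41.4%), with a median length difference of 0 bp. The choice of pairs also limits where the window of 1000 bp with the strongest change can be, since it lies inside the region. In the 504 pairs whose day 7 region had 1000 bp, the day 7 window is the region itself. The window was at the same place in 756 pairs (24.6%). Its middle lay within 200 bp in 1866 (60.7%) and at least 1000 bp away in 286. Since both tables share the day 0 libraries, these positions are a description.

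No chromosome stood out by its median difference, which lay between -0.02 on chromosome 2 and 0.03 on chromosome 16 over the 19 chromosomes. Chromosome 13 had the most uneven split, with 9 of 95 pairs (9.47%) higher and 23 (24.2%) lower at day 7 without overlap, against 21.5% and 21.1% of all pairs. It was singled out after its values were seen and was not tested. Neighbouring pairs split almost evenly, which was not tested. Of 204 neighbours less than 5 kb apart, 108 had differences of the same sign, and at 50 to 200 kb 603 of 1235 (48.8%) did. No run of 4 or more neighbours within 20 kb of each other had day 7 libraries all above or all below those of day 5.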

How the data were processed

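H3K9ac immunoprecipitates and input DNA of differentiating xylem were sequenced at 3 days, with 2 libraries of each kind per day. Per the file headers, diffReps 1.55.4 listed 1000 bp windows, moved by 100 bp, that passed a negative binomial p-value of 0.0001 against day 0, and merged them into regions. Bowtie is named in the submitters' processing notes. Its version and the genome build were not given in the sources used here. The deposited tables give normalised reads per library (2 in a cell, in header order), their mean signal, the ratio or fold enrichment over input, a log2 fold change and the p-value with its adjustment. Per the file headers the inputs are swapped: drought inputs are the background of day 0 and day 0 inputs that of drought. The deposited log2 fold change is printed nowhere here, and the deposited p-values serve only for counts.

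Chromosome names differ between the tables and were matched by number. Day 0 reads were equal in 593 of 593 pairs of identical coordinates. Normalised values times a constant per library came out whole within 0.1 in 100% of regions. PCR reads carry no molecular identifiers, so they are not independent molecules. limma 3.58.1 in R 4.3.3 was fitted to log2 of the fold of day 0 of the 4 drought libraries over all pairs. It had a trended prior and no pseudocount, and was tested on simulated data. The simulation gave all pairs the same spread beyond sampling error, unlike the data, so it does not test the trend behind the 15 calls. The planned count model was not fitted, since the deposited cells hold 2 normalised values each, and limma with voom weights from the recovered reads took its place. Same-numbered replicates of the days are not said to share a plant. Named pairs have at least 100 normalised reads a day and libraries of the days not overlapping. They are the 10 smallest p-values and 3 largest differences each way, the 3 largest differences of each opposite direction, and whatever their values the 3 longest pairs and the 3 with most reads. The pairs, rules and tests were chosen with earlier results of these data known.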

Additional observations from a re-analysis of the deposited data

Results flagged for a closer look

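A difference between day 7 and day 5 was taken up here where, among the named pairs, the test called it, or where both libraries of one day lay above and both of the other day below day 0. The pairs called by limma with day 7 higher had log2 differences of 0.71 on chromosome 19, 0.71 and 0.60 on chromosome 6, 0.64 on scaffold 21, 0.70 on chromosome 2, 0.50 on chromosome 11, 0.54 on chromosome 16 and 0.45 on chromosome 8. Those with day 7 lower had -0.70 on chromosome 1, -0.50, -0.52 and -0.46 on chromosome 2, -0.51 on chromosome 11, -0.50 on chromosome 12 and -0.71 on chromosome 9. The highest adjusted p of each of them over the other settings was 0.945, with unscaled reads. In 14 of the 15 called pairs, the opposite listing on the 2 days already sets which day is higher.

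Over all 3076 pairs, 110 stood on opposite sides of day 0 in this way, of which 14 were called and 96 were not. Of the 96, 5 are among the named pairs, and for them a difference was not shown by the test over the 4 drought libraries. Day 7 was the higher side by 0.41 on chromosome 3 from 17032001 to 17033000 and by 0.42 on chromosome 7 from 13306201 to 13307200, each with a limma adjusted p of 0.0684. It was the lower side on chromosome 10 from 21521601 to 21523000 (log2 -0.45, limma adjusted p = 0.057), on chromosome 6 from 4067401 to 4068400 (log2 -0.84) and on chromosome 5 from 24924701 to 24926200 (log2 -0.40), the last 2 at 0.0684.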

How the results depend on the processing

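The count of 15 called pairs changed with most settings. It was 14 with at least 200 normalised reads, 12 on the scale of the first day 0 library alone, 13 on the header right-trimmed means and 18 with all 6 libraries and the prior trend over reads. It was 6 with libraries centred on their medians, 5 among pairs past the adjusted p in both deposited tables, 4 on the scale of the second day 0 library alone, 6 without scaffolds, 7 among regions of a single pair, 8 with the replicate block and 1 among pairs with an input difference under 0.25. It was 0 with unscaled reads, with identical coordinates, with a shared length of at least 95%, without the trend, with the trend over reads and with voom weights. It was 99 with all 6 libraries and 338 at a shared length of at least 50%. Without one replicate it ran from 0 to 150, the lone library of a day then being assumed to vary like the other day. All 15 calls were among those made without day 5 replicate 1, without day 5 replicate 2, with all 6 libraries and at a shared length of 50%. Of the 15, 7 were among the 8 of the replicate block, and the other was the chromosome 6 region from 4067401 (limma adjusted p = 0.0206 there, 0.0684 without the block). Replicates of the same number deviated from their means together at r = 0.11, and 2 pairs are too few to take this as pairing.

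The median difference of -0.0043 was -0.016 at a shared length of 50%, 0.012 at 95%, 0.0088 with identical coordinates, -0.25 with unscaled reads and -0.078 on right-trimmed means, and from -0.012 to 0.0031 without one replicate. The difference in distance from day 0 was -0.25 for gained and 0.24 for lost pairs with unscaled reads, and -0.074 and 0.067 on right-trimmed means. It ran without one replicate from -0.044 to 0.043 for gained and from -0.030 to 0.015 for lost pairs. Pairs without overlap, 660 higher and 648 lower, numbered 1411 and 1508 at 50%, 160 and 150 at 95%, 85 and 113 with identical coordinates, 316 and 1085 on right-trimmed means and 1 and 487 with unscaled reads, and without one replicate 1115 to 1127 higher and 1054 to 1099 lower. The settings on right-trimmed means, voom weights, the trend over reads (with 4 or all 6 libraries), scaffolds and single pairs were chosen after the data were seen. Causes of these changes were not tested, except that fewer pairs or libraries are fitted where the setting removes them. No named pair changed direction under any setting run. The planned edgeR fit was not run. With a median SE of 0.10 and between 130 and 630 reads per library in the called pairs, small differences were often not detectable.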
